A study of Saccharomyces cerevisiae with 3 samples.

Results

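RNA 3' ends were examined over a 202-nt stretch of PGK1 reporter mRNAs, from position 606 to position 807 relative to the ATG, far upstream of the codon repeat that stalls ribosomes. The stretch was defined by position alone, but with earlier results of these data known. It ends 151 nt before position 958, where a side calculation in the authors' deposited CGA table begins and which is used here as the boundary of the codon stall. It holds 202 of the 917 positions listed in any of the 3 tables, and every one of the 202 was listed in each table. The libraries came from budding yeast (Saccharomyces cerevisiae, BY4741; ski2delta) expressing a reporter with a stem loop, with (CGA)12 or with (AAA)12, 1 library per reporter, grown without uracil on galactose and raffinose and otherwise untreated. The SKI2 deletion was thus shared by all groups, and no strain with SKI2 and no reporter without a stalling sequence is part of the data used here. The recovered cDNA ran from an adaptor ligated to the RNA back to PGK1 position 585, where the primer sits, and the stretch begins 21 nt past it.

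When a ribosome stalls on an mRNA, following ribosomes run into it and can queue upstream, each covering a fixed length of mRNA. In no-go decay the mRNA is cut near the stalled or collided ribosomes. The upstream piece of a cut mRNA carries a new 3' end, which the cytoplasmic exosome digests with the help of the Ski complex. Ski2 is the helicase of that complex, and without it such pieces persist and their 3' ends can be mapped. PGK1 encodes phosphoglycerate kinase, an enzyme of glycolysis, and its mRNA is a common reporter of decay in yeast. CGA codons are read by a wobble pair and AAA codons encode lysine, and runs of either slow or stop translation, as does a stable stem loop.

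Each value below comes from a single library, so differences between reporters have no replicate check and no test. Intervals are 95% Wilson or Poisson-based intervals of counting error only, and copies of 1 molecule made by PCR count separately in them. In all, 4870458 ends were listed for stem loop, 7282449 for CGA and 4154995 for AAA. The labels do not say where the stem loop lies, so distances to position 958 are distances to a stall only in the codon reporters, and for AAA the same boundary is assumed.

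A large part of all recovered ends lay in this stretch, and the part was largest in the CGA library. The stem-loop library had 1491026 ends there, 30.6% of its table (30.57 to 30.65). The CGA library had 3141547, 43.1% of its table (43.10 to 43.17), and the AAA library had 1403436, 33.8% (33.73 to 33.82). On the log2 scale the CGA share exceeded the stem-loop share by 0.49 and the AAA share by 0.35. The AAA share exceeded the stem-loop share by 0.14, but only against the whole table. Among ends between 606 and 957 alone the stretch held 36.01% in the stem-loop library, 43.2% in CGA and 33.8% in AAA, so AAA over stem loop became -0.09 there and CGA over stem loop 0.26. The stem-loop library thus had the lowest share by the whole table and AAA the lowest by the common region.

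The stretch was thinner than the 150 nt that follow it, in all 3 libraries. Per nt, the stem-loop library had a mean of 7381 ends, CGA 15552 and AAA 6948. From 808 to 957 the mean was 17664, 27487 and 18308 in the same order, which is 2.39, 1.77 and 2.64 times the mean of the stretch. At the upstream edge, positions 605 and 606 held 5 and 3665 stem-loop ends, 14 and 7271 CGA ends, and 4 and 2025 AAA ends. At the other edge there was no such step: positions 807 and 808 held 8770 and 12819 stem-loop ends, 6750 and 10577 in CGA, and 9041 and 10602 in AAA.

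**Figure D1:**
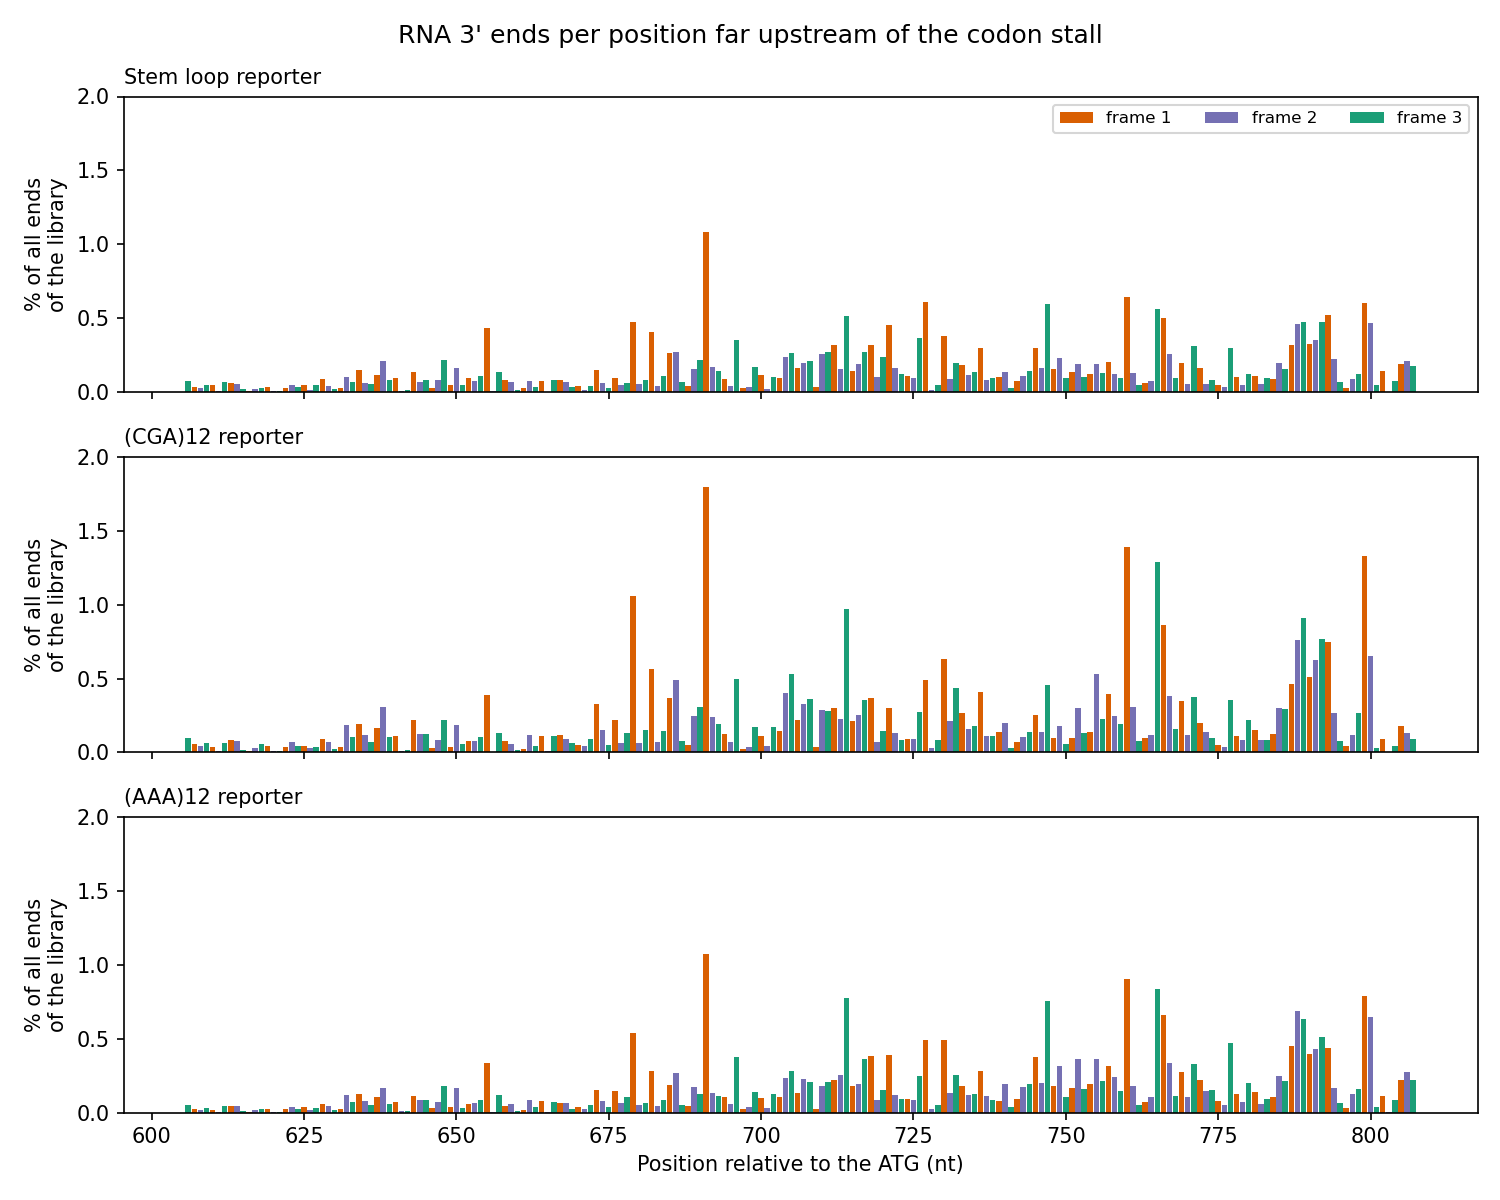
Ends at each position from 606 to 807 as a percent of all ends of the library, 1 panel per library and 1 bar per position, coloured by reading frame. The tallest bar is position 691 in each panel, at 1.08% in the stem-loop, 1.80% in the CGA and 1.07% in the AAA library.

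Ends became sparser with distance upstream of the boundary. In the 22 nt nearest the primer (606 to 627) the stem-loop library had 1816 ends per nt, CGA 3183 and AAA 1018. In the last 20 nt of the stretch (788 to 807) these means were 12392, 27811 and 12555, which is 6.83, 8.74 and 12.3 times as many. The mean of the 101 positions from 707 on exceeded that of the 101 positions before them by 0.98 on the log2 scale in the stem-loop library, 0.94 in CGA and 1.41 in AAA. Over 10 windows of 20 nt (22 nt in the first) the least-squares slope of log2 density was 1.14 per 100 nt for stem loop, 1.29 in CGA and 1.65 in AAA. The AAA profile was therefore the steepest by each of these measures. Distance from the boundary falls as distance from the primer rises, so the decline along the mRNA and the length of the amplified piece cannot be told apart in this design.

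The decline was uneven. Going downstream, 7 of the 9 steps between neighbouring windows were upward in the stem-loop and AAA libraries and 5 of 9 in CGA. The windows 728 to 747 and 768 to 787 held fewer ends per nt than the window before them in each library, and in CGA so did 648 to 667 (7168 after 7998 ends per nt) and 708 to 727 (19412 after 20799). Of the ends of the stretch, the window 748 to 767 between those dips held 13.4% in the stem-loop library, 16.5% in CGA and 17.5% in AAA, and the last window, 788 to 807, held 16.6%, 17.7% and 17.9%. The window 708 to 727 ranked next in the stem-loop library with 16.2%, against 12.4% in CGA and 14.04% in AAA. The median end of the stretch lay at position 727 in the stem-loop library, 732 in CGA and 745 in AAA, which is 231, 226 and 213 nt upstream of the boundary. The 10th and 90th percentiles were 654 and 792, 657 and 792, and 666 and 793 in the same order. In nt, the 10th percentile thus differed more between libraries than the 90th. Ends were sparser near the primer, so the same change in share moves a percentile further there.

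**Figure D2:**
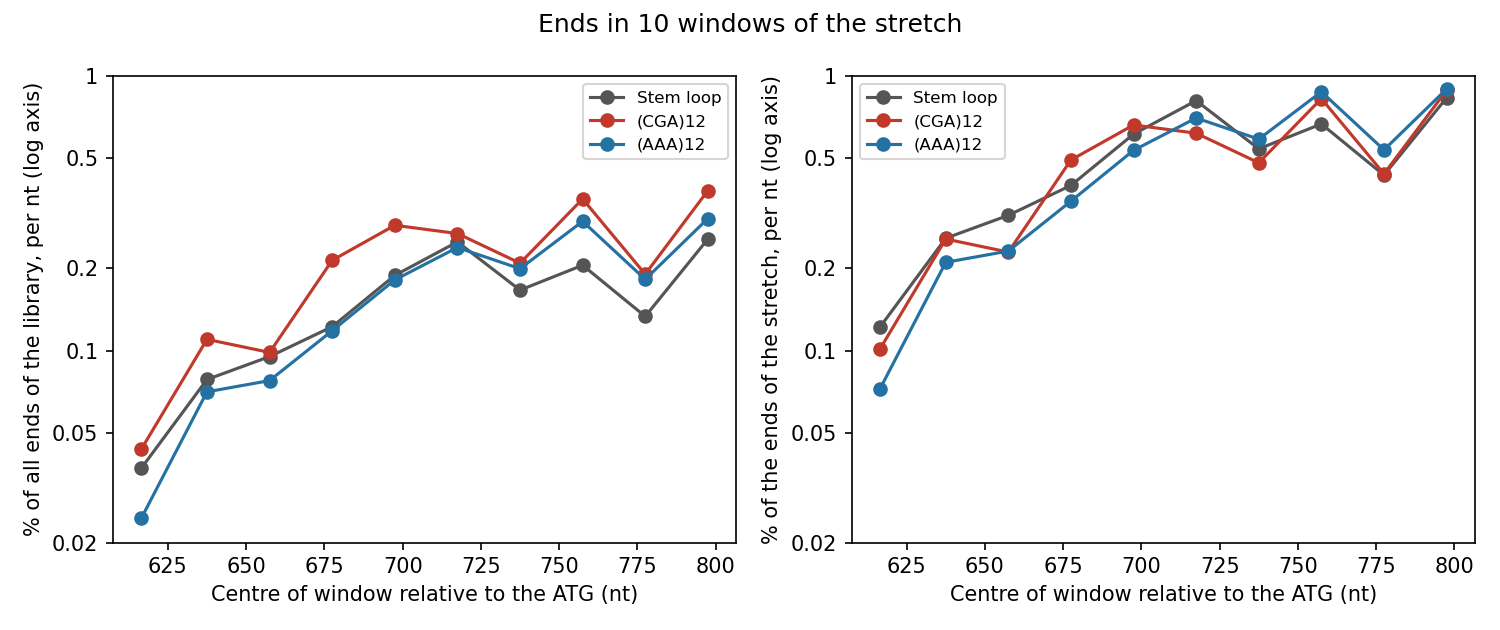
Mean ends per nt in 10 windows of the stretch, as a percent of the library (left) and of the ends of the stretch (right), on log axes against the centre of each window, 1 line per library. All lines end higher than they begin, with dips at 728 to 747 and 768 to 787 and, in CGA, also at 648 to 667 and 708 to 727, and the CGA line lies highest on the left panel.

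Within this slope, neighbouring positions differed sharply, and mostly in the same direction in each library. The count per position ran from 195 to 52721 for stem loop with a median of 4834.5, from 237 to 130929 in CGA with a median of 8805, and from 150 to 44423 in AAA with a median of 4349. The median fold between adjacent positions was 2.01, 2.04 and 1.97 in these libraries. Of 201 steps between adjacent positions, 178 went in the same direction in all 3 libraries. The steepest was from 655 to 656, within codon 219: 21050 and 291 ends for stem loop, 28319 and 445 in CGA, and 13926 and 259 in AAA. Those are falls of 72.3, 63.6 and 53.8 times. Positions 727 and 728, in codon 243, differed by 33.8, 18.0 and 21.8 times.

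A small number of positions carried much of the stretch. The 10 fullest positions held 20.002% of its ends for stem loop (19.94 to 20.07), 25.8% in CGA (25.76 to 25.86) and 23.0% in AAA (22.91 to 23.05). To reach 50% of the ends took 37 positions for stem loop, 32 in CGA and 34 in AAA. Together the 3 lists of 10 named 14 positions, and 7 of these were in every list: 691, 714, 760, 765, 766, 789 and 799. CGA and stem loop had 7 positions in common, AAA and stem loop 8, and CGA and AAA 8.

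Position 691, the first nucleotide of codon 231, was the fullest of the stretch in each library. It held 52721 ends in the stem-loop library, 130929 in CGA and 44423 in AAA. As a share of the stretch these are 3.54% (3.51 to 3.57), 4.17% (4.15 to 4.19) and 3.17% (3.14 to 3.19). It stood at 9.45, 12.03 and 10.4 times the median of the 21 positions centred on it. The positions beside it were far lower: in the order stem loop, CGA and AAA, 690 held 10575, 22226 and 5116 ends, and 692 held 8469, 17620 and 5529.

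Position 760, in codon 254, ranked 2 in all 3 lists, with 31483 ends in the stem-loop library, 101304 in CGA and 37573 in AAA, or 2.11%, 3.22% and 2.68% of the stretch. Position 765 held 27540, 93976 and 34790 ends, or 1.85%, 2.99% and 2.48%. Position 799, in codon 267, held 29367, 96855 and 32856 ends, or 1.97%, 3.08% and 2.34%. At each of these 3 positions the share of the stretch was highest in CGA and lowest in the stem-loop library. Position 714, in codon 238, held 1.68%, 2.25% and 2.30%, with AAA and CGA close together and stem loop below.

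Other full positions were ordered differently. Position 727 ranked 3 in the stem-loop library with 29890 ends (2.00%) and held 35461 (1.129%) in CGA and 20282 (1.45%) in AAA. Position 747, the last nucleotide of codon 249, held 29080 ends (1.95%) in the stem-loop library, 33442 (1.06%) in CGA and 31402 (2.24%) in AAA. At both positions the CGA share was the lowest of the 3. Position 679, in codon 227, was in the CGA list alone, with 77002 ends (2.45%), against 23159 (1.55%) in the stem-loop library and 22450 (1.60%) in AAA. Position 793 was in the stem-loop list alone (1.70%, with 1.72% in CGA and 1.29% in AAA), as was 727, and position 800 was in the AAA list alone (1.91%, with 1.53% in stem loop and 1.51% in CGA). Position 792 held 1.55%, 1.77% and 1.51% and was in the CGA list alone, and position 788 held 1.51%, 1.76% and 2.04% and was in the CGA and AAA lists.

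Ends also gathered in a short plateau rather than a single position near the downstream edge. The fullest run of 7 nt was 787 to 793 in every library, where stem loop had 142582 ends, CGA 347846 and AAA 147330. It held 9.56%, 11.1% and 10.5% of the ends of the stretch. Its least and most used positions held 15481 and 25363 ends for stem loop, 33749 and 66384 in CGA, and 16449 and 28593 in AAA, so that all 7 positions were above the median of the stretch. Codon 263 (787 to 789) alone held 4.11%, 4.95% and 5.25% of the stretch, and codon 231 (691 to 693) held 4.57%, 5.18% and 3.90%.

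Local peaks were counted as positions fuller than the 5 positions on either side and at least 3 times the median of the 21 positions centred on them. The stem-loop library had 8, CGA 11 and AAA 11 among the 202 positions. The counts and their order depended on the multiple: at 2 times the median they were 17, 15 and 16, and at 4 times 6 in each library. Over the 352 positions from 606 to 957 the same rule called 4.83% in the stem-loop library, 5.68% in CGA and 5.97% in AAA, and the shares within the stretch, 3.96%, 5.45% and 5.45%, were near these. Of 14 peaks in any library, 7 were called in all 3: 606, 655, 679, 691, 747, 760 and 799. Position 606 meets the rule because almost no ends lie before it. The other 6 lay 24, 12, 56, 13 and 39 nt apart, with no single spacing. Position 655 took 1.41% of the stretch for stem loop, 0.901% for CGA and 0.992% for AAA, and stood at 5.77, 5.07 and 5.73 times its local median.

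Positions with few ends recurred as well. A local low was the mirror of a peak: no fuller than the 5 positions on either side, with a local median at least 3 times its count. By this rule 11 positions in the stem-loop library, 15 in CGA and 12 in AAA were local lows, against 5.11%, 6.53% and 4.83% of the 352 positions from 606 to 957. The lows called in every library were the 7 positions 641, 656, 665, 709, 728, 741 and 803, of which 5 were in frame 2. Position 803 held 237 ends in the stem-loop library, 237 in CGA and 298 in AAA, between 0.0224 and 0.0330 of its local median. Position 665 held 195, 567 and 150 ends. A count of 0 would allow up to 3 counts, and these positions held far more.

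The ends were most frequent in frame 1, the first nucleotide of codons if position 1 is the A of the ATG (not checked against a sequence). Since no source used here says if the RNA ends at or before its listed position, the frame of the end itself may be shifted by 1. Frame 1 held 42.1% of the ends of the stretch in the stem-loop library (42.01 to 42.17), 41.8% in CGA (41.77 to 41.88) and 39.7% in AAA (39.65 to 39.81). The shares of frame 3 were next, at 32.5%, 31.8% and 32.5%, and those of frame 2 lowest, at 25.4%, 26.3% and 27.7%. By median ends per position frame 1 was again highest, at 5579, 9903 and 4753. By that measure frame 2 was above frame 3 in CGA (8700 against 8539.5) and in AAA (4277 against 4002.5). In the stem-loop library it was below frame 3 (3926 against 4725). The stretch has 67, 67 and 68 positions in frames 1, 2 and 3, so equal use would give close to equal shares. From 808 to 957 frame 1 held 39.9%, 42.4% and 41.2% in the same order of libraries. The order of the libraries in frame 1 was therefore not the same on both sides of position 807, and no test of that difference was made.

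The preference was smaller without the fullest position. Without position 691 the frame 1 share was 39.96% in the stem-loop library, 39.3% in CGA and 37.8% in AAA, and with every codon given the same weight it was 40.2%, 39.01% and 38.2%. Of the 67 whole codons of the stretch, the fullest nucleotide was the first in 30 codons of the stem-loop library, 30 of CGA and 28 of AAA, the third in 25, 25 and 22, and the second in 12, 12 and 17. The same nucleotide was fullest in all 3 libraries in 56 of the 67 codons. The order of the other frames changed along the stretch: from 606 to 657 frame 2 was above frame 3 in CGA (32.5% against 29.97%) and in AAA (31.7% against 30.6%). Frame 1 was highest from 658 to 707, where it held 49.3% in the stem-loop library, 50.6% in CGA and 48.4% in AAA. That block contains position 691, itself in frame 1 and the fullest of the stretch. The share of the block without it was not computed, and no rise across the block is claimed. Median ends per position depend little on 1 position. By these medians frame 3 was above frame 1 in CGA in that block (10050 against 9080). Frame 1 was the higher in the stem-loop library (4746 against 4158.5) and in AAA (4254 against 3220). From 708 to 757 frame 1 held 40.3%, 36.8% and 37.3% of the ends, and frame 3 held 36.3%, 37.1% and 36.3%, so that frame 3 was just ahead in CGA there.

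**Figure D3:**
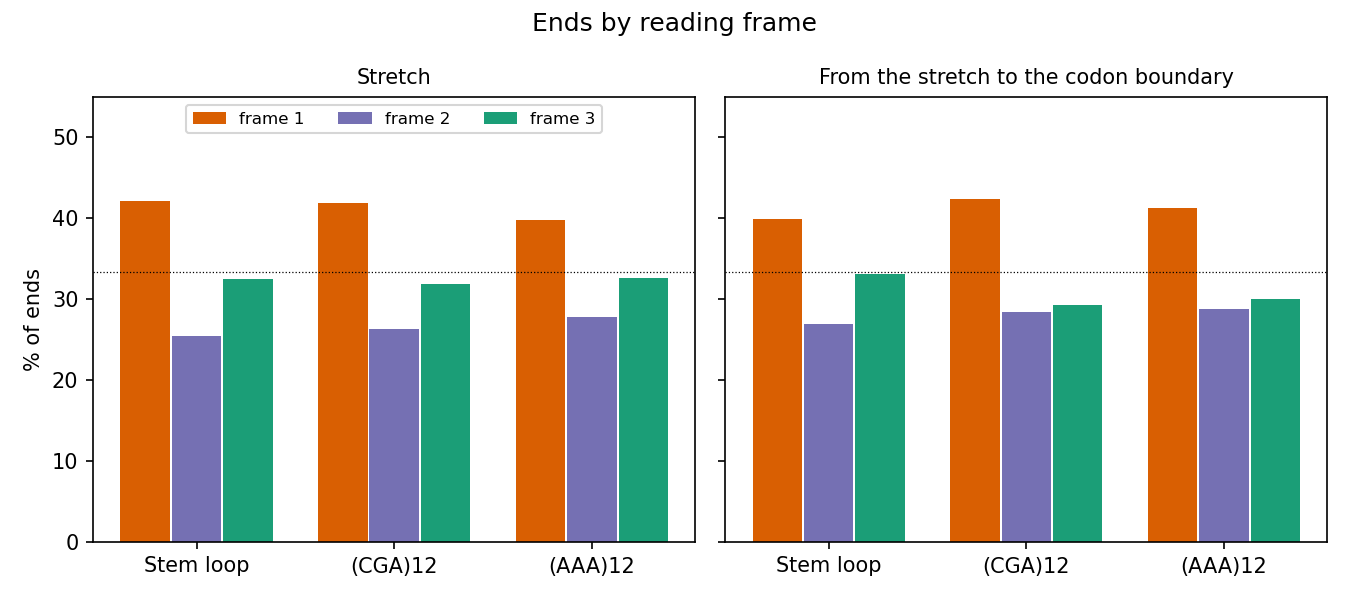
Percent of ends in frames 1, 2 and 3 for each library, in the stretch (left) and from position 808 to 957 (right), with a dotted line at equal use. Frame 1 is the highest bar in every group, at 39.7% to 42.1% in the stretch.

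Site by site the libraries were alike in this stretch. Pearson's r of log2(ends + 1) over the 202 positions was 0.95 for CGA with stem loop, 0.96 for AAA with stem loop and 0.95 for CGA with AAA, and Spearman's rho was 0.94, 0.96 and 0.94. Over the 150 positions that follow, r was 0.62, 0.85 and 0.65 for the same pairs. The points of each r share a reporter sequence, a primer and a slope, and are not replicates, so no p-value is given. To make 2 profiles equal within the stretch, 13.4%, 11.7% and 12.4% of ends would need another position, against 28.8%, 13.1% and 24.2% from 808 to 957.

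Few positions differed by 2-fold or more between libraries in their share of the table. All 202 positions had at least 100 ends in each library. CGA was at least 2-fold above stem loop at 19 positions and below it at 0, while over all listed positions with 100 ends in both libraries 10.5% and 16.4% were above and below. The 19 positions are 9.41% of the stretch, a share near that of all positions. AAA was above stem loop at 1 position and below it at 1, against 5.32% and 3.08% of all such positions. CGA was above AAA at 10 positions and below it at 3, against 5.9% and 12.9%. The CGA share of the table was the higher at 152 of 202 positions against stem loop and at 157 against AAA. The AAA share was above the stem-loop share at 101. These counts depend on the denominator, here the whole table. Another is the ends from the start of the stretch up to the boundary. With it the log2 ratio of the stretch went from 0.49 to 0.26 for CGA over stem loop. For AAA over stem loop it went from 0.14 to -0.09. Each position shifts by the same amount. CGA would then be 2-fold above stem loop at fewer positions, and CGA and AAA 2-fold below it at more. Those counts were not made.

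Taken as shares of the stretch, which removes its higher total, the CGA library was relatively low in several short runs. A run was a row of at least 10 positions over which the running mean of the log2 ratio over 5 positions kept its sign. Most positions of a run therefore share its sign by construction, and tallies of positions within runs only describe them. Nearer the primer it was lower than stem loop from 608 to 617 (-0.31 on the log2 scale), 619 to 632 (-0.19) and 638 to 663 (6.39% against 8.08%, -0.34). It was higher from 664 to 684 (0.32). From 716 to 728 it held 6.23% of its ends against 10.03% in the stem-loop library, -0.69 on the log2 scale, and 12 of 13 positions were lower. From 735 to 753 it held 7.46% against 10.5%, -0.49. From 754 to 772 the order turned, with 17.3% against 13.1%, 0.40, and 16 of 19 positions were higher. Against AAA, CGA was lower from 738 to 758 (9.38% against 14.2%, -0.60) and higher from 662 to 694 (17.9% against 13.2%, 0.44). In the last 7 positions, 801 to 807, CGA was below both other libraries at each position, by -1.07 against stem loop and -1.09 against AAA in share of the stretch.

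The most extreme positions were not all in those runs. CGA over stem loop was lowest at position 807 (-1.45, interval -1.50 to -1.41), with 6750 CGA and 8770 stem-loop ends, and at 750 (-1.28) and 804 (-1.26). It was highest at 755 (0.97, interval 0.939 to 1.004), with 38589 and 9338 ends, and at 773 (0.80), just past the run that ends at 772, and 674 (0.80), in a run of higher values from 664 to 684. CGA over AAA was lowest at 807 (-1.58), 803 (-1.49) and 806 (-1.44) and highest at 690 (0.96), 608 (0.89) and 669 (0.89). Position 608 lay in a run of higher values from 608 to 645, and 606 and 607 before it were higher too (0.68 and 0.73). Both comparisons share the CGA library.

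AAA against stem loop followed a different course, with longer runs on either side of 0. These runs were set by the same rule, so their tallies are no separate support. In share of the stretch AAA was lower at 60 of the 64 positions from 608 to 671 (10.6% against 14.2%, -0.42) and higher at 45 of the 51 positions from 741 to 791 (40.02% against 31.96%, 0.32). Positions 606 and 607, before the first of these runs, were lower as well (-0.77 and -0.73). By window the log2 ratio was -0.75 at 606 to 627, -0.29 at 628 to 647, -0.43 at 648 to 667, and between -0.21 and -0.19 in the 3 windows from 668 to 727. It was 0.12 at 728 to 747 and highest at 748 to 767 (0.39), and then came down to 0.31 and 0.11 in the last 2 windows. Near the downstream edge AAA was again below stem loop at single positions, as at 794 (-0.60) and 802 (-0.51). Its lowest positions were 610 (-1.50), 611 (-1.11) and 615 (-1.06), and its highest were 773 (1.20), 758 (0.79) and 755 (0.79).

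**Figure D4:**
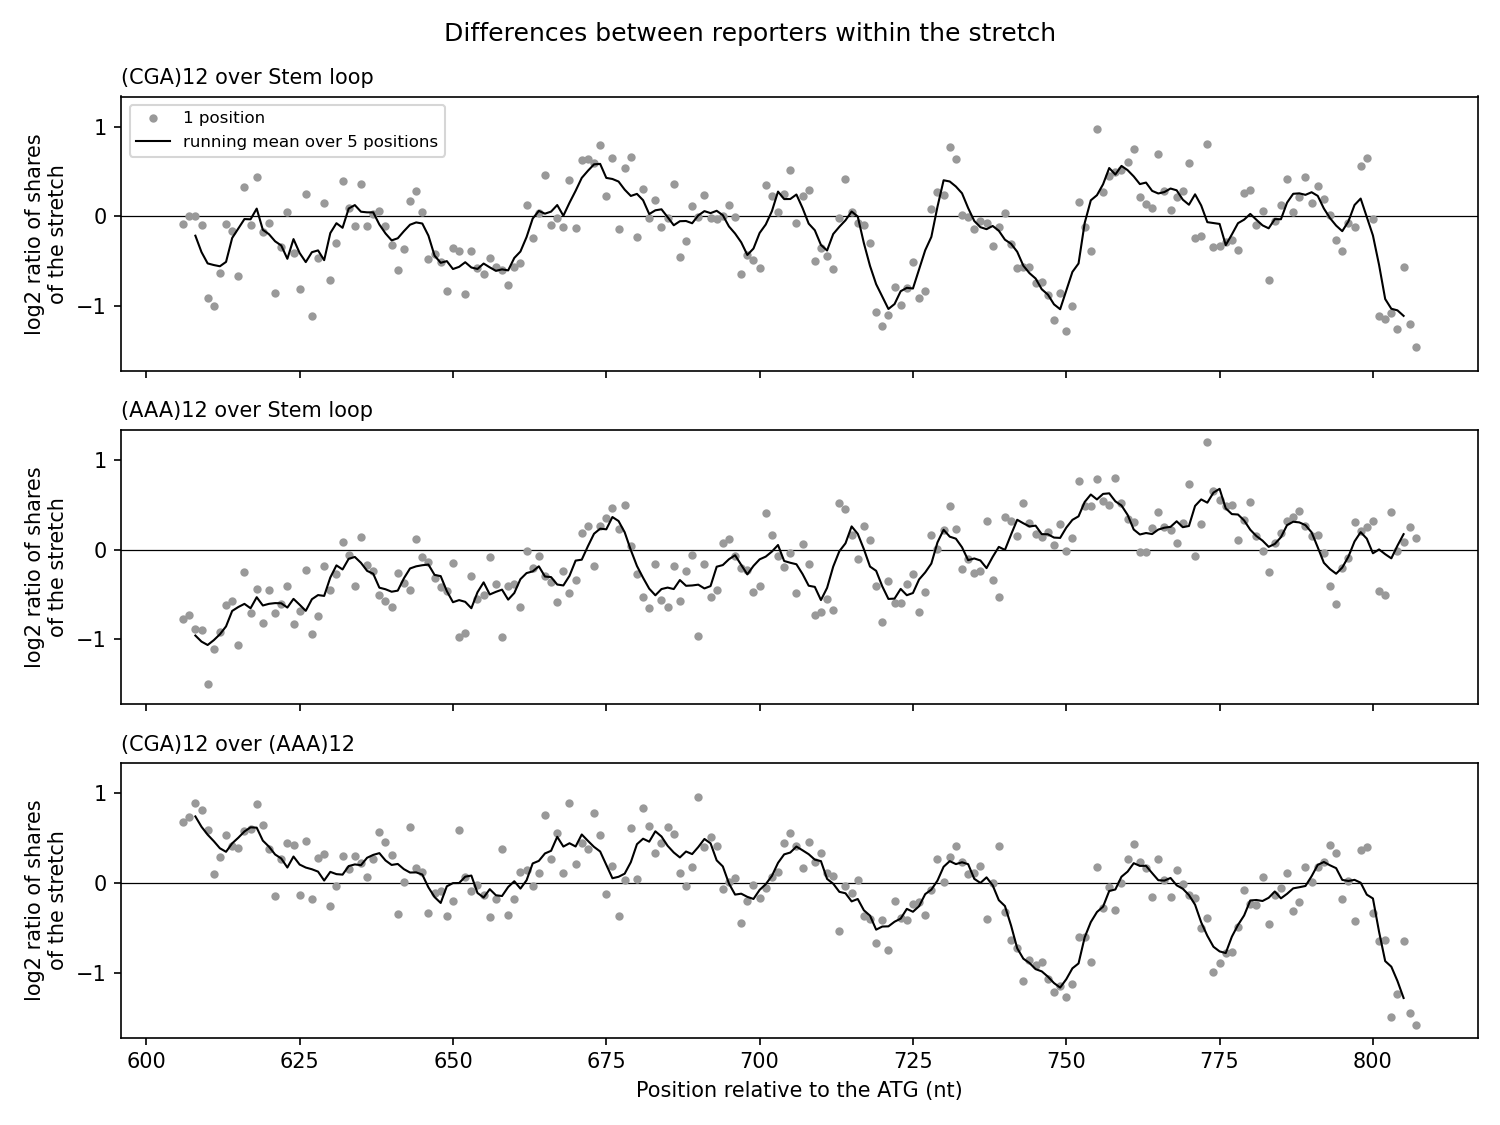
Log2 ratio of shares of the stretch at each position (points) and its running mean over 5 positions (line) for the 3 pairs of libraries. The CGA ratios swing up and down several times between position 700 and 807 and end below 0, and AAA over stem loop lies mostly below 0 up to 671, mostly above 0 from 741 to 791, and on both sides of 0 after that.

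In part of the stretch the swings of the CGA ratios lay at similar distances, a pattern looked for after the profiles were seen. In the running mean of CGA over stem loop over 5 positions, high points (highest within 10 nt on either side) lay at 618, 634, 674, 703, 730, 759 and 790. The last 5 of these were 29, 27, 29 and 31 nt apart and 284, 255, 228, 199 and 168 nt upstream of the boundary, while the gaps before them were 16 and 40 nt. Its low points at 626, 657, 698, 721, 749, 776 and 806 were 31, 41, 23, 28, 27 and 30 nt apart.

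The other pairs were less even. In CGA over AAA the high points lay at 638, 671, 683, 706, 731, 761 and 792, with gaps of 33, 12, 23, 25, 30 and 31 nt, and the low points at 629, 648, 676, 699, 719, 749 and 776, with gaps of 19, 28, 23, 20, 30 and 27 nt. Similar gaps were present without the CGA library too. High points of AAA over stem loop, at 634, 646, 676, 703, 715, 730, 757 and 775, were 12 to 30 nt apart. Its first 4 low points, at 626, 653, 683 and 710, were 27, 30 and 27 nt apart, and those after them, at 721, 762 and 794, followed at 11, 41 and 32 nt. Gaps of 27 to 31 nt thus occurred in all 3 pairs, and in none of them along the whole stretch.

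Autocorrelation of the log2 ratio was taken over the whole stretch as well. Between lags of 20 and 45 nt it was highest at 27 nt for CGA over stem loop (0.22), at 29 nt for CGA over AAA (0.46) and at 30 nt for AAA over stem loop (0.43). With a linear trend removed these were 0.22, 0.29 and 0.12 at the same lags. For AAA over stem loop the value at 30 nt then stood alone, with -0.03 at 29 nt and -0.14 at 31 nt. At 12 nt, below the lags searched, it was 0.21 in this pair. The values that follow for each part of 101 positions were taken with the trend left in. In the 101 positions nearer the boundary the highest values were 0.34 at 27 nt for CGA over stem loop, 0.54 at 29 nt for CGA over AAA and 0.08 at 24 nt for AAA over stem loop. In the 101 positions nearer the primer they were 0.29 at 39 nt for CGA over stem loop, 0.072 at 20 nt for CGA over AAA and 0.42 at 42 nt for AAA over stem loop. From 808 to 957, with the trend removed, the highest was 0.12 for CGA over stem loop (30 nt), 0.15 for CGA over AAA (33 nt) and 0.22 for AAA over stem loop (30 nt), so AAA over stem loop was the highest there. Single libraries showed no rise near 29 nt in the stretch: with the trend removed, the autocorrelation at that lag was -0.03 in the stem-loop library, 0.06 in CGA and -0.02 in AAA, and its highest value lay at 41 nt in each (0.18, 0.18 and 0.26). These values describe 1 library each, the CGA ratios share the CGA library, and no test was made of them.

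**Figure D5:**
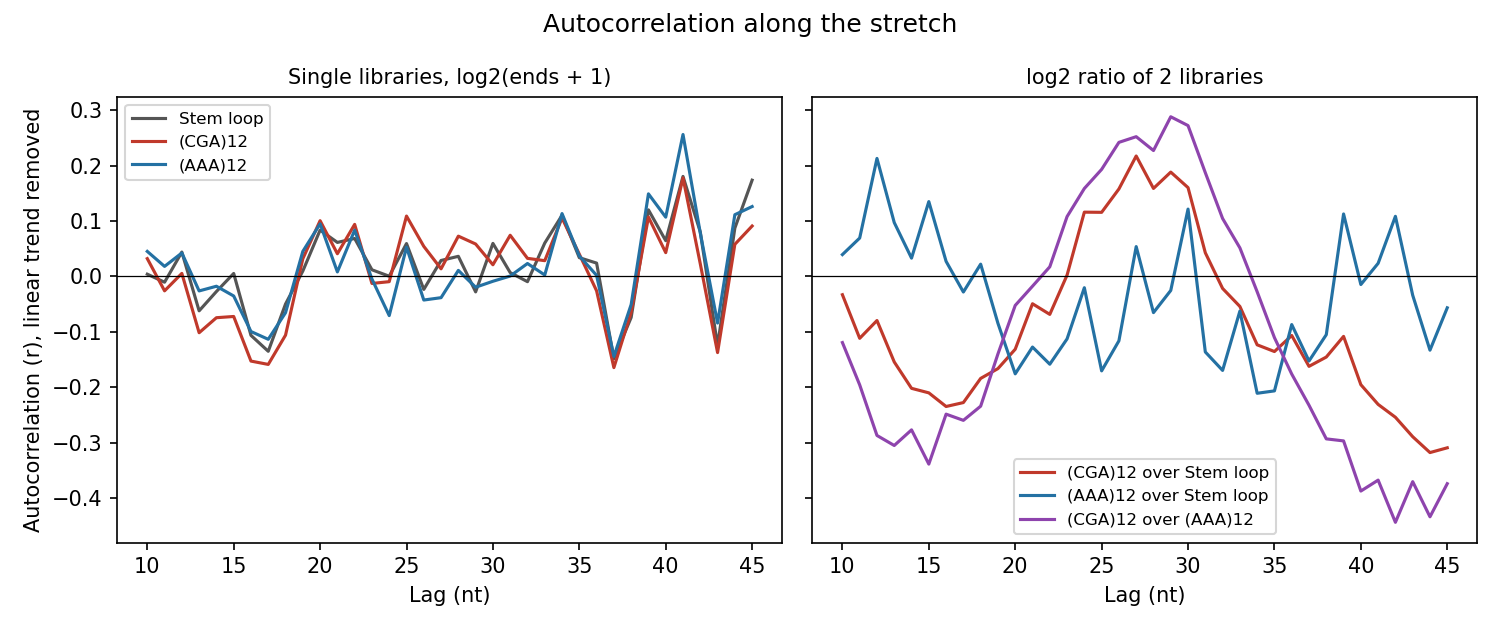
Autocorrelation (r) along the stretch against lag in nt, with a linear trend removed, for log2(ends + 1) of each library (left) and for the log2 ratio of each pair (right). The CGA ratios rise to 0.22 at 27 nt and 0.29 at 29 nt. AAA over stem loop reaches 0.12 at 30 nt, with -0.03 at 29 nt and -0.14 at 31 nt beside it. The single libraries lie near 0 at these lags.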

How the data were processed

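Per the labels' protocols, an adenylated DNA oligonucleotide was ligated to hot-phenol RNA and cDNA was amplified between it and a PGK1 primer. The tools named, per the submitters' processing notes, were bedtools, Novoalign, SAMtools 1.13 and cutadapt 1.12. No source used here gives settings, the reference or molecular identifiers, or says if the RNA ends at or before a listed position. The authors deposited raw counts of reads per position, 1 table per library, with the position and the reading frame; these other values, per the file headers, only place the counts. Frame was recomputed from the position ((position - 1) modulo 3, plus 1), with 0 disagreements in the stretch. The 4 unnamed columns of the CGA table were not used.

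Shares, windows, frames, local peaks, ratios and autocorrelation were computed with statsmodels 0.14.6, scipy 1.17.1, pandas 2.3.3 and numpy 2.4.6 (Python 3.11.15). The slope, the frame 1 share, the peak rule with tall planted peaks and the search for a lag were tested on simulated data. The other measures were not. Named positions were the 10 fullest per library, peaks in all 3 libraries, the 3 highest and lowest ratios per pair among positions with 100 ends in both, and the edges. Steps, plateau, lows, runs, the last 7 positions and spacing were added after the profiles were seen. The stretch and all measures were chosen with earlier results of these data known. The alternatives were other denominators, windows, peak multiples and pseudocounts, and leaving out position 691 or the first 10 positions. Bases and codons at the ends were not analysed here, since no sequence of the reporter was at hand. With 1 library per reporter, depth gives narrow counting intervals and no measure of the spread between cultures.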

Additional observations from a re-analysis of the deposited data

Results flagged for a closer look

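Between the primer at position 585 and the stretch lie 20 positions that no comparison uses, and each library listed a few ends there: 17 in the stem-loop library, 25 in CGA and 9 in AAA. A count of 0 would allow 3, and each number exceeds that. No position among them held more than 6, 14 and 4 ends, and position 605, the last of them, held 5, 14 and 4. There is no control sample to set them against.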

How the results depend on the processing

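There were 90 alternative values: 26 stayed inside the counting interval (for counts within 1.5 times, for correlations within 0.005, for lags equal), 63 moved and 1 changed sign; the cause of a move was not tested. No paired analysis was possible because each reporter had a single library, and none could be omitted. The base at the listed position and its 3 alternatives were not run for want of a sequence. The alternatives for the lag and for the share of the fullest position were chosen after seeing the data.

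Values follow in the order stem loop, CGA, AAA. Against ends from 606 to 957 only, the stretch held 36.01% and 43.24% (stem loop, CGA), and AAA over stem loop changed sign to -0.0905 on the log2 scale while CGA over stem loop became 0.26. Without the fullest position the stretch held 29.9%, 42.1% and 33.1%, the log2 difference between positions from 707 on and those before was 1.128, 1.11 and 1.57, the median end lay at 730, 736 and 746, frame 1 held 39.96%, 39.3% and 37.8%, AAA over stem loop was 0.147 and CGA over AAA 0.349. Without the first 10 positions that difference was 0.90, 0.85 and 1.300, the slope 1.23, 1.39 and 1.72, the median 730 and 733 (stem loop, CGA), frame 1 held 42.24% and 41.96%, and the 10 fullest positions held 20.3%, 26.1% and 23.2%. From medians per position the difference was 1.09, 1.24 and 1.65. The slope was 1.24, 1.40 and 1.75 with 30-nt windows and 1.130, 1.16 and 1.60 over single positions. With equal weight for each codon frame 1 held 40.2%, 39.01% and 38.2%. The 10 fullest sums over 3 neighbours held 37.5%, 42.9% and 40.4%. Peaks at 2 times the local median numbered 17, 15 and 16, and at 4 times 6, 6 and 6. On raw ends r was 0.920 (CGA with stem loop), 0.947 (AAA with stem loop) and 0.936 (CGA with AAA), and 0.968 for the last pair with a running mean subtracted. Nearer the primer the lag was 39 nt (CGA over stem loop), 42 nt (AAA over stem loop) and 20 nt (CGA over AAA); for AAA over stem loop it was 24 nt nearer the boundary and 27 nt with sums over 3 neighbours.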
